A study of Mus musculus with 22 samples.

Results

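The nuclear genes for subunits of the mitochondrial respiratory chain were read by 106 of the 41174 probes on a mouse liver array, and these probes stood for 72 of 28034 gene names. They were chosen by name alone, as probes that are not controls and whose gene name begins as a complex I (Nduf), complex II (Sdh), complex III (Uqcr), complex IV (Cox4 to Cox8, followed by an isoform digit) or complex V (Atp5) subunit does. Complex I contributed 36 genes, complex II 4, complex III 7, complex IV 8 and complex V 17. Of the genes, 45 had 1 probe and 27 had several. Each value is the log2 of the liver signal divided by that of a reference RNA shared by all arrays, so 0 means as much signal in liver as in the reference, and a gene with several probes is represented by its brightest. One gene, Cox7b2, was not well above background on any array, which left 71 to test.

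The respiratory chain passes electrons from NADH (complex I) and succinate (complex II) through complex III to oxygen at complex IV, and the proton gradient this builds drives ATP synthesis by complex V. Each complex except complex II also holds subunits encoded in mitochondrial DNA, and the nuclear subunits surround or assist those. In liver the chain consumes the electrons set free by fatty acid oxidation and the citric acid cycle, and birth brings both air breathing and a diet of milk fat. Some subunits exist as isoforms from separate genes, of which one is used in most tissues and another in heart and skeletal muscle or in testis.

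Livers came from 22 mice of strain C57BL/6 in 6 groups. The newborn groups were 4 Tcf7l2-/- pups and 4 Tcf7l2+/+ pups, all given 50 ul of a 10% glucose solution under the skin and sampled 5 h after birth. The adult groups were Tcf7l2loxp/loxp;SA-CreERT2 mice, labelled knockout, and Tcf7l2loxp/loxp mice without Cre, labelled control, all of which received tamoxifen at 3 weeks of age, the controls included. After 1 to 2 months the adults had been fasted for 24 h (4 knockouts and 4 controls) or fed (3 knockouts and 3 controls). Tcf7l2 encodes a DNA-binding protein through which beta-catenin regulates genes in Wnt signalling. The labels do not spell out which promoter drives SA-CreERT2 or which part of Tcf7l2 was removed, and they describe mice of the same group as biological replicates.

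Several facts of the whole data set bear on what follows. Between 22.8% and 31.2% of probes were well above background in the liver channel of fed arrays, against 50.2% to 64.4% in newborn and fasted arrays; of the 106 subunit probes, 98 to 101 were so on newborn, 99 to 102 on fasted and 89 to 92 on fed arrays. The arrays lay on 6 slides. Newborn knockouts and newborn wild types had 1 slide each, fasted arrays of both genotypes shared 2 slides and fed arrays of both genotypes shared another 2, so that slide cannot be told apart from age, from feeding state or from newborn genotype. The brightest Tcf7l2 probe averaged -1.66 ± 0.13 in newborn knockouts and -0.78 ± 0.40 in newborn wild types (SD, n = 4 each), a difference of -0.87 with an adjusted p of 0.061 in limma, which did not pass. Adult knockouts were not lower on this probe, at 0.32 ± 0.36 in fasted knockouts and -0.03 ± 0.11 in fasted controls (SD, n = 4 each), and as the deleted part is not named here, the probe may lie outside it and adult genotypes rest on the labels. Hepatocyte markers were present throughout: the mean log2 ratio over 14 of them ran from 6.59 to 6.96 on newborn arrays, 5.13 to 5.58 on fasted arrays and 6.22 to 6.94 on fed arrays. On 2 fasted knockout arrays, 2 and 3, the mean over 12 pancreas and white fat markers was 3.88 and 3.67, against 0.35 to 1.25 on the other fasted arrays and 0.70 to 1.11 on newborn and fed arrays. Genes of pancreatic digestive enzymes stood out there, with Cpb1, a carboxypeptidase gene, at 7.99 and 7.54, against -0.26 to -0.014 on the other fasted arrays. Fasted knockout 3 and fasted control 1 also held muscle transcripts. In bulk liver, fewer cells of a type and less RNA per cell cannot be told apart.

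The median over the 71 subunit genes lay above 0 on every array after loess normalization. It was 0.61, 0.21, 0.34 and 0.62 in newborn knockouts 1 to 4 and 0.69, 0.36, 0.38 and 0.34 in newborn wild types 1 to 4. It was 0.68, 0.56, 0.64 and 0.64 in fasted knockouts and 0.51, 0.56, 0.59 and 0.63 in fasted controls. It was 0.67, 0.55 and 0.72 in fed knockouts and 0.57, 0.71 and 0.52 in fed controls. Newborn arrays therefore differed among themselves more than adult arrays did, and 3 of them (knockouts 1 and 4 and wild type 1) stood within the adult range while the other 5 stood below it. The pooled SD of this median within groups was 0.12.

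Between newborn and adult liver, more subunit genes were lower in newborns than higher. Of 71, 33 were lower and 10 higher (limma, adjusted p below 0.05 over all genes tested), and 28 did not pass. The median difference was -0.14 on the log2 scale. Newborn and adult liver differed in much of the transcriptome: 70.8% of all 18913 genes tested were called, 33.2% lower and 37.6% higher, with a median of 0.03. The share of subunit genes called, 43 of 71, lies below that background and is not by itself a result about the subunits. The counts differed little by genotype, with 28 lower and 8 higher between newborn and adult knockouts (28.5% of all genes lower and 32.9% higher, 61.4% in all) and 25 lower and 8 higher between newborn wild types and adult controls (26.8% and 31.6%, 58.4% in all).

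Lower transcripts lay mostly in complexes I, II and III. In complex I, 21 of 36 genes were lower and 3 higher, with a median difference of -0.29. In complex II, 3 of 4 were lower and none higher, with a median of -0.45. In complex III, 4 of 7 were lower and 1 higher, with a median of -0.26. Complex IV and complex V did not share this balance: of 7 tested complex IV genes 1 was higher and none lower (median 0.20), and of 17 complex V genes 5 were higher and 5 lower (median 0.07). All these counts go by gene name. Ndufa4, lower and counted in complex I, is now known as a subunit of complex IV. Atp5sl, lower and counted in complex V, is now named Dmac2 and known for complex I assembly. The name rule takes in only part of complex IV, and of 9 tested genes of this complex outside the rule 6 were called (66.7%). Whether the complexes differ from each other was not tested.

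**Figure D1:**
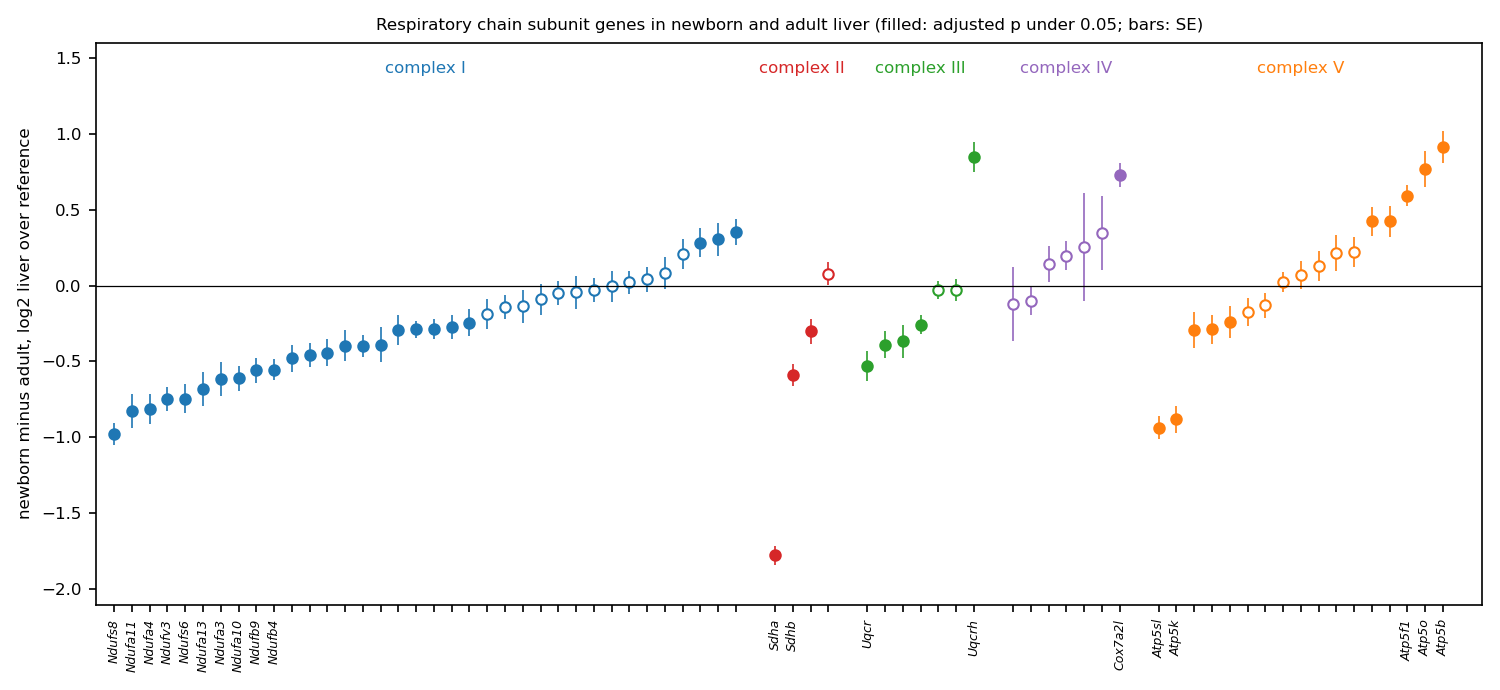
Each point is 1 of 71 subunit genes, placed along the horizontal axis by the complex of its name, with its newborn minus adult difference in log2 liver over reference on the vertical axis. Bars are SE and filled points passed limma's adjusted p of 0.05, and the genes with the larger differences are named. Sdha lies lowest at -1.78 and Atp5b highest at 0.91, and in complex I 21 filled points lie below 0 and 3 above.

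Among the core subunits of complex I, those that carry the flavin, the iron-sulphur clusters and the quinone site, calls in newborns were all to the lower side. Ndufs8, which holds iron-sulphur clusters near the quinone site, ran from -0.43 to 0.08 on newborn arrays with a median of -0.26, against 0.48 to 1.02 on adult arrays with a median of 0.71. No newborn array reached an adult one, and the difference was -0.98 ± 0.07 (SE, limma adjusted p = 8.3e-11). Ndufv1 and Ndufs7 were lower by smaller amounts, at -0.29 ± 0.06 and -0.27 ± 0.08 (SE). Ndufs1, Ndufv2 and Ndufs3 did not pass, at -0.19, -0.14 and -0.03.

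Among 28 accessory subunits of complex I, which surround the core and are needed for its assembly and stability, 16 were lower, 3 higher and 9 did not pass. Ndufa11, a subunit of the membrane arm, ran from -0.10 to 0.52 in newborns and from 0.55 to 1.51 in adults, with a difference of -0.83 ± 0.11 (SE, adjusted p = 9.0e-07 in limma). Under median centring in place of loess normalization its difference was -0.20 and did not pass. Ndufs6 (-0.74), Ndufa13 (-0.68), Ndufa3 (-0.61), Ndufa10 (-0.61), Ndufb9 (-0.56) and Ndufb4 (-0.55) were also lower, and for Ndufb4 newborn values of 0.08 to 0.68 lay wholly below adult values of 0.83 to 1.00. Under median centring Ndufa3 stood at -0.15 and Ndufa10 at -0.16, and neither passed. The 3 higher genes changed less, with Ndufc2 at 0.35 ± 0.08, Ndufa6 at 0.31 ± 0.11 and Ndufa8 at 0.28 ± 0.10 (SE). With the liver channel alone Ndufc2 stood at -0.017 and Ndufa6 at 0.013. All 3 overlapped between the ages.

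Ndufv3 encodes an accessory subunit of the NADH-oxidizing end of complex I that occurs in a long and a short form. Its brightest probe, at chr17:31658570-31658629 (mm9), read -0.59 to 0.09 in newborns and 0.21 to 0.76 in adults, a difference of -0.75 ± 0.08 (SE, limma adjusted p = 4.9e-08). Its other 2 probes, at chr17:31664691-31664750 and chr17:31665148-31665207, gave 0.12 and 0.16 and did not pass. The lower reading in newborns was thus found with 1 of 3 probes. Ndufa4 carries a complex I name but is now known as a subunit of complex IV. It ran from 0.41 to 1.26 in newborns and from 1.26 to 2.06 in adults, with no overlap and a difference of -0.81 ± 0.10 (SE).

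Complex II, or succinate dehydrogenase, belongs to both the respiratory chain and the citric acid cycle and has only nuclear subunits. The largest difference of all 71 genes was that of Sdha, the flavoprotein that oxidizes succinate. Its brightest probe, at chr13:74460146-74460205 (mm9), ran from 0.64 to 0.95 in the 8 newborns with a median of 0.87, against 2.30 to 2.84 in the 14 adults with a median of 2.58. That is a difference of -1.78 ± 0.06 (SE, limma adjusted p = 2.6e-16), 3.43-fold lower in newborns, with more than 1 log2 unit between the highest newborn and the lowest adult. A probe at chr13:74465756-74465815 gave -0.89, also lower. The remaining probe, at chr13:74486662-74486720 and assigned in the array design to a separate transcript sequence, gave 0.43 in the opposite direction (adjusted p = 3.9e-04 in limma over every probe). That probe was dim, well above background on no fed array. Sdha was the only one of 23 subunit genes with several tested probes to have opposite calls, and 18 of the 23 had the same sign on all of them.

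Sdhb, the iron-sulphur subunit that takes electrons from Sdha, ran from 0.69 to 1.34 in newborns with a median of 1.06, against 1.10 to 1.98 in adults with a median of 1.55. The difference was -0.59 ± 0.07 (SE, adjusted p = 2.6e-07 in limma). Of the membrane anchors that bind quinone, Sdhc was lower at -0.30 ± 0.08 (SE), but its sign turned under median centring (0.17) and with the liver channel alone (0.04). Sdhd did not pass, at 0.08 ± 0.07 (SE).

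In complex III, the core proteins Uqcrc1 and Uqcrc2 both stood at -0.03 and did not pass. The Rieske iron-sulphur protein Uqcrfs1 was lower at -0.26 ± 0.06 (SE), with a sign that turned under median centring (0.02). Of 4 small subunits, Uqcr (now named Uqcr11), Uqcrq and Uqcrb were lower, at -0.53, -0.39 and -0.37, the last again with a sign that turned under median centring (0.08). Uqcrh, the hinge protein beside cytochrome c1, went the other way. It ran from 0.09 to 0.62 in newborns with a median of 0.44, against -0.70 to 0.28 in adults with a median of -0.51. The difference was 0.85 ± 0.10 (SE, limma adjusted p = 1.4e-07), its other probe gave 0.94, and a single adult array, fasted knockout 1 at 0.28, overlapped the newborn values. The array also holds a probe for a Uqcrh pseudogene, and signal from so similar a transcript cannot be told apart here.

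The complex V genes moved in both directions within the same enzyme. In the F1 head, where ATP is made, the catalytic beta subunit Atp5b ran from 0.10 to 1.12 in newborns with a median of 0.72, against -0.53 to 0.03 in adults with a median of -0.22. Newborns were higher by 0.91 ± 0.10 (SE, adjusted p = 1.3e-07 in limma) without overlap, and all 3 of its probes were called higher, at 0.91, 0.75 and 0.29. The alpha subunit Atp5a1 was higher too, at 0.42 ± 0.10 (SE), with a sign that turned with the liver channel alone (-0.10), while the delta and epsilon subunits Atp5d and Atp5e of the central stalk were lower, at -0.29 and -0.24, and the gamma subunit Atp5c1 did not pass, at 0.13.

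The peripheral stalk, which holds the head still against the turning rotor, had 2 of 4 genes higher and 1 lower. Atp5o, which ties the stalk to the head, ran from 0.51 to 1.64 in newborns and from 0.09 to 0.44 in adults, with a difference of 0.77 ± 0.12 (SE, limma adjusted p = 7.0e-06). Atp5f1, the b subunit (now named Atp5pb), was higher by 0.59 ± 0.07 (SE) without overlap on its brightest probe, while its other 2 probes gave -0.05 and -0.10 and did not pass. With the liver channel alone the brightest probe of Atp5f1 stood at 0.05 and did not pass. Atp5j was lower at -0.29 ± 0.12 (SE), a call that was lost on leaving out any of 7 of the 22 arrays and with the processed signals (-0.15), median centring (-0.17) and the liver channel alone (-0.25). Of the 3 genes for the same c subunit of the rotor ring, Atp5g2 was higher at 0.42 ± 0.10 (SE), and Atp5g1 (-0.13) and Atp5g3 (-0.17) did not pass. Atp5k, the e subunit found where ATP synthases pair up, ran from -0.45 to 0.29 in newborns and from 0.59 to 0.93 in adults, without overlap and with a difference of -0.88 ± 0.09 (SE, adjusted p = 1.6e-08). Atp5sl, which the name rule takes in although it is now named Dmac2 and known for complex I assembly, was lower by 0.94 without overlap.

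Among the genes that the name rule takes in, complex IV showed the fewest calls, 1 of 7. None of the 6 tested genes of the paired isoforms passed: the widely used forms Cox6a1 (0.14), Cox6b1 (-0.10) and Cox7a2 (0.20), the muscle forms Cox6a2 (0.26) and Cox7a1 (-0.12), and the testis form Cox6b2 (0.35). With median centring Cox6b1 and Cox7a1 were called higher, at 0.50 and 0.51, and with the liver channel alone Cox7a2 was called lower, at -0.27. With loess the only one of the 7 genes called was Cox7a2l, known for joining complexes III and IV into supercomplexes. It ran from 0.73 to 1.22 in newborns with a median of 0.95, against -0.11 to 0.43 in adults with a median of 0.31, and was higher by 0.73 ± 0.08 (SE, limma adjusted p = 7.6e-08). Of 9 further complex IV genes that the digit in the name rule leaves out, 4 were higher and 2 lower in newborns, among them Cox4i1 at 0.42 and Cox5a at -0.45. Cox7c was lower at -1.57, with newborn values of -2.38 to -0.43 and adult values spread from -1.85 to 1.29.

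**Figure D2:**
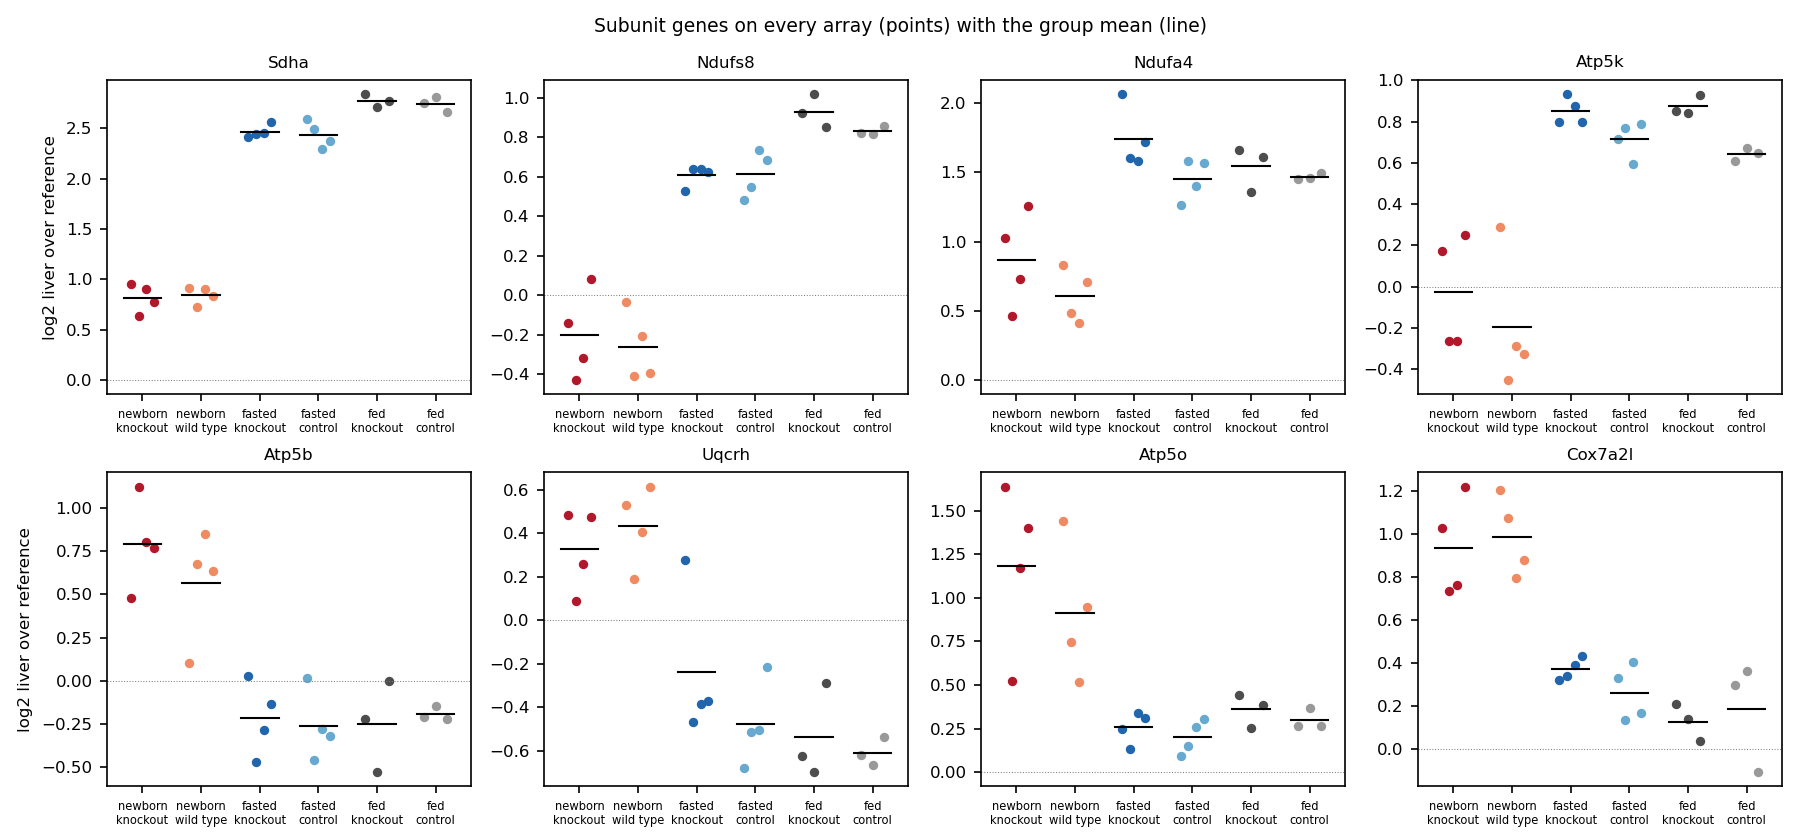
Each point is 1 array, with the 6 groups along the horizontal axis and log2 liver over reference on the vertical axis; lines are group means. For Sdha all 8 newborn points lie between 0.64 and 0.95 and all 14 adult points between 2.30 and 2.84, and for Atp5b the newborn points run from 0.10 to 1.12 and the adult points from -0.53 to 0.03.

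In all, 8 genes were lower in newborns without any overlap between the ages (Ndufa11, Ndufa4, Ndufb4, Ndufs8, Ndufv3, Sdha, Atp5k and Atp5sl) and 4 were higher without overlap (Cox7a2l, Atp5b, Atp5f1 and Atp5o). Over all genes tested the ages did not overlap for 11% lower in newborns and 14.9% higher. The directions of single genes were compared under 4 ways of scaling the arrays: loess, the scanner software's processed signals, median centring, and the liver channel without the reference. Under all 4, 29 genes stood lower and 15 higher in newborns, and 27 changed sign. Of these, 17 were called lower in each of the 4 (Atp5k, Atp5sl, Ndufa1, Ndufa13, Ndufa4, Ndufb2, Ndufb4, Ndufb8, Ndufb9, Ndufs5, Ndufs6, Ndufs8, Ndufv3, Sdha, Sdhb, Uqcr and Uqcrq) and 4 higher in each (Atp5b, Atp5o, Cox7a2l and Uqcrh). The shares of all genes that kept their sign or were called under all 4 scalings are not given here. The counts under 4 scalings are therefore not by themselves a result about the subunits.

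The balance of directions depended on which adults were compared and how. Against fasted adults, newborns had 29 genes lower and 11 higher with loess (32.3% of all genes lower and 35.2% higher, 67.5% in all), 36 and 7 with the processed signals (36.2% and 33.5% of all genes), 39 and 4 with median centring (26.7% and 48.0%), and 28 and 8 with the liver channel alone (31.0% and 35.6%). Against fed adults they had 30 lower and 15 higher with loess (31.5% and 38.7%, 70.3% in all), 25 and 20 with the processed signals (22.7% and 51.5% of all genes), 39 and 6 with the liver channel alone (29.2% and 37.4%), and 3 lower and 48 higher with median centring (19.0% and 54.8%). Over both, median centring gave 17 lower and 28 higher (22.8% and 53.7% of all genes), and moved the median of all genes to 0.30, above the 0.08 of the subunits. Lower subunit genes thus outnumbered higher ones against fasted adults under each of these scalings. Against fed adults they did so with loess and the liver channel alone, were close to even with the processed signals, and were outnumbered with median centring.

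**Figure D3:**
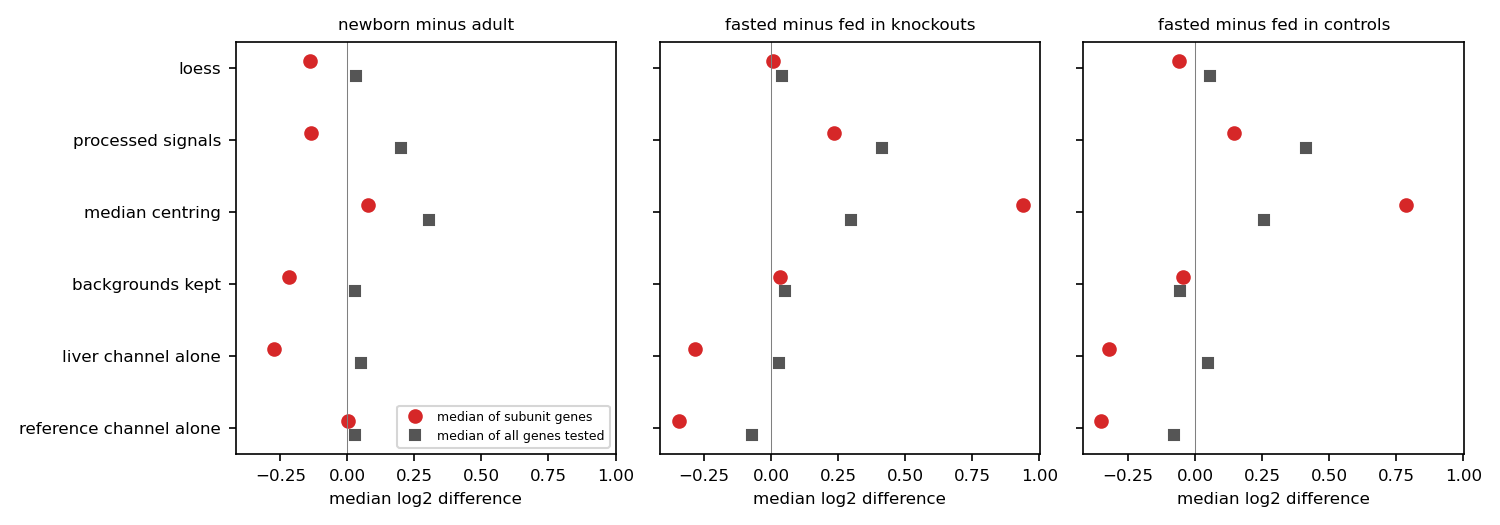
The median log2 difference of the 71 subunit genes is set beside that of all genes tested, for each comparison (panels) and each way of scaling the arrays (rows). Leaving aside the reference channel alone, the fasted minus fed medians of the subunits run from -0.32 with the liver channel alone to 0.79 with median centring in controls, and from -0.28 to 0.94 in knockouts.

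Markers of blood-forming cells moved with age in the same samples. Of 17 erythroid markers 16 were higher in newborns, and their mean log2 ratio ran from 4.54 to 5.15 on newborn arrays, against 0.76 to 1.13 on adult arrays. All 10 neutrophil and myeloid precursor markers were higher, among them Camp, a granule protein gene, at 6.77. Of 14 hepatocyte markers 7 were higher and 6 lower, with Afp, the fetal serum protein, at 11.86 and Apob at -1.16. Of 12 Kupffer cell markers 2 were higher and 6 lower, of 11 endothelial markers 3 and 5, of 11 stellate cell and fibroblast markers 5 and 4, of 9 muscle and brown fat markers 3 and 0, and of 12 pancreas and white fat markers 3 and 3. The part of these cells in the subunit differences was not tested.

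Genes that serve the chain without being its subunits were read beside them. Of 43 tested assembly factors, 28 were lower in newborns and 3 higher, with a median of -0.48. Cox19, which acts in copper delivery to complex IV, ran from -0.45 to 0.08 in newborns and from 1.02 to 1.81 in adults, with a difference of -1.47. Ndufaf1 and Ecsit, partners in assembling the membrane arm of complex I, were lower by 1.30 and by 1.23, and neither overlapped between the ages. Cox17, a copper chaperone, was one of the 3 higher, at 1.16. That value came mostly from the fasted arrays, since Cox17 stood at 1.93 against fasted adults and at 0.40 against fed adults, where it did not pass (limma adjusted p = 0.071).

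Of 8 electron carriers and other subunits that the name rule does not reach, 5 were lower and none higher in newborns. Gpd2, the mitochondrial glycerol phosphate dehydrogenase, stood at -1.60, Etfdh, which passes electrons from fatty acid oxidation to quinone, at -0.68, and Ndufab1, the acyl carrier protein within complex I, at -0.59. Of 78 mitochondrial ribosomal protein genes 30 were lower and 21 higher, and of 17 genes of the citric acid cycle and pyruvate dehydrogenase 6 were lower and 6 higher, with Suclg2 at -1.31 and Idh3a at 1.12.

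In contrast, all 5 tested genes for carriers and regulators that handle the products of the chain were higher in newborns. Atpif1, the inhibitor that binds the F1 head of complex V, ran from 0.62 to 1.16 in newborns and from -2.79 to -2.31 in adults, a difference of 3.40. Slc25a4, the adenine nucleotide carrier of heart and muscle, ran from -0.84 to 0.36 in newborns and from -5.31 to -3.51 in adults, a difference of 4.66. Ucp2 stood at 2.09, and the phosphate carrier Slc25a3 and the carrier Slc25a5 at 0.63 and 0.61. Of 17 regulators of mitochondrial biogenesis, 7 were higher, among them Ppargc1a (1.74), a coactivator of mitochondrial genes, and Nrf1 (1.12), and 8 were lower, among them Ppara (-0.69) and Esrra (-0.54).

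Promoter windows from RefSeq (GRCm38.p6, 250 bases before to 50 after the transcript start) were found for 62 of the 72 genes and searched on both strands for letters bound by factors known for nuclear genes of the chain. The NRF1 letters GCGCATGC stood in 10 of the 62 (16.1%), against 3.05% of all 27025 genes with a window. The ETS family letters CCGGAAG, as bound by GABP, stood in 15 (24.2%), against 9.93% of all genes, the YY1 letters AAGATGGC in 11 (17.7%), against 3.19%, and the ERR letters TCAAGGTCA in 2 (3.23%), against 0.466%. The NRF1 letters and their reverse complement overlap by design, and such a pair was counted once per gene. A match is a description of these letters and not of binding.

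Genes with the same letters were found on either side of the age comparison: NRF1 letters stood in 3 of 9 genes higher in newborns and in 4 of 28 lower, and ETS letters in 1 of 9 higher and in 8 of 28 lower. YY1 letters stood in 1 of 9 higher and in 6 of 28 lower, and ERR letters in 0 of 9 and 0 of 28. The 150 bases before the start are shown for 1 gene of each direction for the NRF1 and the ETS letters, with the matched letters in capitals. No stretch is shown for the YY1 or ERR letters. For NRF1 these are Atp5g2 (higher in newborns, chr15:102671048-102671197, minus strand) and Atp5k (lower, chr5:108434400-108434549, minus strand), and for ETS letters Uqcrh (higher, chr4:116075071-116075220, minus strand) and Uqcr (lower, chr10:80406822-80406971, minus strand).
Atp5g2: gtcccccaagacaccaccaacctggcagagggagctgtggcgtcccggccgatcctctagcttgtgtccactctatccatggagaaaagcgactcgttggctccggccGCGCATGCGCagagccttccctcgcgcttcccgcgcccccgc
Atp5k: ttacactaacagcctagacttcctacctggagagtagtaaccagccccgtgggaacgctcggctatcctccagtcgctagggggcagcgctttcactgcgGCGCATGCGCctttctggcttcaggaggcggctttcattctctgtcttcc
Uqcrh: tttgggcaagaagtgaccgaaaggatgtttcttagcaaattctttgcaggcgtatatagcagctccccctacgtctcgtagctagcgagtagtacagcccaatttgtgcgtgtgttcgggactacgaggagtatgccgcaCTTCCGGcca
Uqcr: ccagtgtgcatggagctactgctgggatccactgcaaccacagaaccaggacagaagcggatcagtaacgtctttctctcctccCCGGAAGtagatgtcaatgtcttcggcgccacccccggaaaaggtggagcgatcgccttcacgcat
In Atp5g2 and Atp5k the same palindrome of NRF1 letters stands 42 and 50 bases before the start, while the transcripts differed between the ages by 0.42 and -0.88. In Uqcrh and Uqcr the ETS letters stand on opposite strands, 10 and 66 bases before the start.

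Fasting for 24 h was compared with feeding within each adult genotype. In knockouts 14 of 71 subunit genes were higher when fasted and 10 lower, with a median of 0.01 (35.7% of all 17196 genes called, 18.8% higher and 16.9% lower). Without fasted knockouts 2 and 3, the arrays with pancreas markers, 4 were higher and 5 lower (10.9% and 10.5% of all genes), a setting chosen after seeing the data. In controls 10 were higher and 11 lower, with a median of -0.06 (36.8% of all genes called, 20.2% higher and 16.6% lower). Of these, 9 genes were higher in both, 8 lower in both and none called in opposite directions, which is 70.8% of the calls in knockouts and 81.0% of those in controls. The share of all genes called in the same direction in both is not given here. This overlap is therefore not by itself a result about the subunits. The 2 comparisons share slides but no arrays.

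The balance of higher and lower calls by feeding state changed with the scaling of the arrays. With the processed signals 29 subunit genes were higher and 3 lower in fasted knockouts (41.8% and 11.0% of all genes), and 18 higher and 4 lower in fasted controls (42.9% and 9.98%). With median centring 65 were higher and none lower in knockouts (41.2% and 12.0% of all genes) and 63 higher and none lower in controls (37.5% and 15.3%), with medians of 0.94 and 0.79 beside 0.30 and 0.26 for all genes. With the liver channel alone 7 were higher and 13 lower in knockouts (17.0% and 12.1% of all genes), and 7 higher and 20 lower in controls (21.8% and 16.1%). The reference channel, hybridised with 1 common RNA throughout, by itself gave 5 genes higher and 35 lower in knockouts (25.2% and 30.6% of all genes) and 7 higher and 36 lower in controls (26.0% and 33.3%). In each genotype 57 of 71 genes changed sign between the 4 scalings, and none was called in 1 direction under all 4. The share of all genes that changed sign is not given here. Fasted and fed arrays lay on different slides, so slide and feeding state cannot be told apart. The values by gene that follow are those with loess, and the signs that turned are given with them.

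All 4 complex II genes lay below 0 in both genotypes with loess, and 3 of them passed in each. Sdhb was 1.56, 1.30, 1.33 and 1.54 in fasted knockouts, against 1.95, 1.86 and 1.93 in fed knockouts. In controls it was 1.10, 1.24, 1.11 and 1.20 fasted, against 1.92, 1.98 and 1.98 fed. No fasted array reached a fed one, and the differences were -0.48 ± 0.09 in knockouts and -0.80 ± 0.09 in controls (SE, limma adjusted p = 0.0018 and 6.3e-05). Sdhb stood lower under all 4 scalings in controls, but in knockouts it was 0.38 with median centring. Sdhd was lower by 0.46 in knockouts and by 0.41 in controls, and stood at 0.49 and 0.44 with median centring. The direction of Sdha was not settled: it was lower by 0.31 in each genotype with loess, but stood at 0.44 in knockouts and 0.34 in controls with median centring, and at 0.99 and 1.03 with the liver channel alone.

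In complex I, 9 of 36 genes were higher and 5 lower in fasted knockouts, beside 18.8% and 16.9% of all genes. In fasted controls 5 were higher and 6 lower, beside 20.2% and 16.6% of all genes. With backgrounds of this size the counts are not by themselves a result about complex I. Among its core subunits Ndufv1 and Ndufs8 were lower in knockouts and Ndufv1 in controls, and none was higher. Ndufv1, the subunit that binds NADH, stood at -0.45 ± 0.09 in knockouts and -0.32 ± 0.09 in controls (SE). Ndufa10 was 0.53, 0.68, 0.64 and 0.73 in fasted knockouts, against 1.38, 1.33 and 1.27 in fed knockouts, and 0.70, 0.83, 0.53 and 0.76 in fasted controls, against 1.24, 1.25 and 1.35 in fed controls. With loess the fasted values lay below all fed values, with differences of -0.69 ± 0.10 and -0.57 ± 0.10 (SE, adjusted p = 2.0e-04 in knockouts and 6.3e-04 in controls by limma). With median centring Ndufv1 stood at 0.54 in each genotype, Ndufs8 at 0.35 in knockouts, and Ndufa10 at 0.061 in knockouts and 0.096 in controls.

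Other accessory subunits of complex I were higher when fasted with loess. Ndufa1 stood higher under all 4 scalings in both genotypes. Ndufa1 was 1.16, 1.05, 1.17 and 1.21 in fasted knockouts, against 0.48, 0.15 and 0.43 in fed knockouts, and 0.83, 1.12, 0.94 and 1.22 in fasted controls, against 0.38, 0.74 and 0.28 in fed controls. The differences were 0.79 ± 0.13 and 0.57 ± 0.13 (SE, limma adjusted p = 7.4e-04 in knockouts and 0.0057 in controls). Ndufb3 (0.76 and 0.62), Ndufb5 (0.54 and 0.50) and Ndufa8 (0.40 and 0.52) were higher in knockouts and controls, and Ndufb8 (-0.43 and -0.63) was lower. With the liver channel alone the sign turned for Ndufb3 (-0.50 and -1.05) and Ndufb5 (-0.58 and -0.33) in knockouts and controls, and for Ndufa8 in controls (-0.40), and with median centring for Ndufb8 (0.68 and 0.35). Ndufv3 was higher on its brightest probe (0.34 and 0.31, and -0.20 in knockouts with the liver channel alone), while the probe at chr17:31664691-31664750 was called lower in knockouts, at -0.48.

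In complexes III and V few genes passed. The Rieske gene Uqcrfs1 was higher in both genotypes (0.33 in knockouts and 0.28 in controls), and Atp5h, a peripheral stalk subunit, was lower in both (-0.44 and -0.32, but 0.64 and 0.62 with median centring). Atp5s, now named Dmac2l, was 0.36, 0.02, 0.60 and 0.45 in fasted knockouts, against -0.26, -0.37 and -0.59 in fed knockouts, and 0.19, 0.56, 0.71 and 0.39 in fasted controls, against -0.52, -0.36 and -0.74 in fed controls. It was higher by 0.76 ± 0.16 in knockouts (SE). It was well above background on no fed control array, so only a bound is given in controls, where its liver signal was at least 1.30-fold higher when fasted. It stood higher under all 4 scalings in both genotypes.

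In complex IV, Cox6b1 was higher when fasted (0.32 in knockouts and 0.59 in controls), as was Cox7a2 (0.40 and 0.45). Both turned with the liver channel alone, Cox6b1 to -0.48 and -0.25 and Cox7a2 to -0.50 and -0.36 in knockouts and controls. The neighbouring genes outside the name rule went the other way, with Cox4i1 (-0.59 and -0.59), Cox5a (-0.46 and -0.58), Cox5b (-0.70 and -0.72) and Cox8a (-0.42 and -0.68) lower in knockouts and controls with loess, and all 4 above 0 in both with median centring. Cox6c was higher (0.64 and 0.29, but -0.076 and -0.20 with the liver channel alone). Cyc1, the cytochrome c1 of complex III, was lower in both (-0.73 and -0.79), but above 0 with median centring and with the liver channel alone, and Etfdh was higher by 0.83 in each. Of 17 citric acid cycle and pyruvate dehydrogenase genes 6 were lower in each genotype, with 2 higher in knockouts and none in controls.

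**Figure D4:**
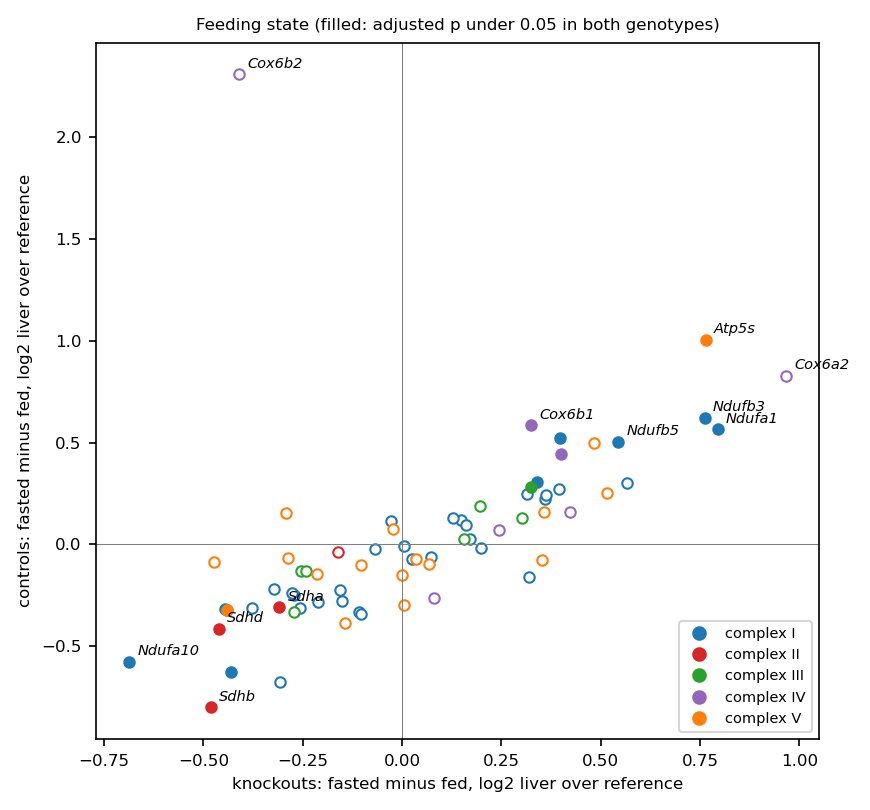
Each point is 1 of 71 subunit genes, with its fasted minus fed difference in knockouts on the horizontal axis and in controls on the vertical axis, both in log2 liver over reference after loess; filled points passed limma's adjusted p of 0.05 in both genotypes. Sdhb and Ndufa10 lie at the lower left and Ndufa1, Ndufb3 and Atp5s at the upper right, while Cox6b2 stands alone at 2.31 in controls and -0.41 in knockouts.

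Markers also moved with feeding state. Of 14 hepatocyte markers 12 were lower in fasted knockouts and 11 in fasted controls, and none was higher. Of 12 Kupffer cell markers 5 were higher and 2 lower in knockouts, and 7 higher and none lower in controls. Of 11 endothelial markers 4 were higher and 4 lower in knockouts, and 5 higher and 1 lower in controls. Of 11 stellate cell and fibroblast markers 3 were higher and none lower in knockouts, and 5 higher and 1 lower in controls. Of 7 tested erythroid markers 1 was higher and 2 lower in knockouts and 2 higher and 2 lower in controls, and of 7 neutrophil and myeloid precursor markers 2 were higher in knockouts and none in controls. None of 8 tested muscle and brown fat markers or of 8 pancreas and white fat markers passed in either genotype. Their part in the subunit differences was not tested.

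No subunit gene was called between knockouts and their controls at any stage. In newborns 0 of 71 passed in limma (1.41% of all 17183 genes called), 2 had an unadjusted p below 0.05, and the median difference was 0.01. In fasted adults 0 passed (0.465% of all 17196 genes called), 12 had an unadjusted p below 0.05, and the median was 0.07. In fed adults 0 passed (0.215% called), 2 had an unadjusted p below 0.05, and the median was 0.05. None passed as an interaction of knockout with fasting (0% of all genes called), where 4 had an unadjusted p below 0.05. With backgrounds this low, a count of 0 among 71 genes lies close to the background share. The share of all genes with an unadjusted p below 0.05 is not given here. The unadjusted counts therefore have no background beside them and are not by themselves a result about the subunits.

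The differences are given here with their errors, and no bound on a knockout effect was computed. In newborns each genotype had its own slide, so the error there does not separate genotype from slide. The median SE of a single gene was 0.16 in newborns, 0.11 in fasted adults and 0.13 in fed adults. Leaving aside Cox6a2 and Cox6b2, newborn differences ran from -0.23 (Ndufa13) to 0.30 (Ndufs4), and fasted ones, leaving aside Cox6b2 and with loess, from -0.35 (Atp5sl) to 0.46 (Atp5g2). Fed differences ran from -0.31 (Ndufc2) to 0.57 (Cox6b2, SE 0.53). Within slides, the median knockout minus control difference was 0.07 on each fasted slide, and 0.02 and 0.07 on the fed slides.

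The gene with the smallest p in fasted adults was Cox6b2, the testis form of a complex IV subunit. It was 0.69, 0.66, 1.08 and 2.79 in fasted knockouts, against 2.89, 3.58, 3.53 and 3.80 in fasted controls. It was 2.46, 0.82 and 1.87 in fed knockouts and 1.51, 1.29 and 0.62 in fed controls, where the groups overlapped. Every fasted knockout lay below every fasted control, with a difference of -2.14 ± 0.46 (SE), which did not pass (limma adjusted p = 0.066). Over the alternatives the adjusted p ran from 0.0041 without fasted knockout 4, where the difference was -2.64, to 0.44 with outlying local backgrounds kept, where it was -0.85. Without fasted knockouts 2 and 3, the arrays with pancreas markers, it was -1.71 (adjusted p = 0.37). It was called under median centring and with slide as a fixed block as well. The interaction with feeding was -2.72 ± 0.70 (SE, adjusted p = 0.55). In newborns it was 2.02, 1.69, 1.99 and 2.32 in knockouts, against 2.87, 2.41, 2.25 and 2.44 in wild types, a difference of -0.49 ± 0.17 (SE, adjusted p = 0.23) that was 0.37 with the liver channel alone.

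**Figure D5:**
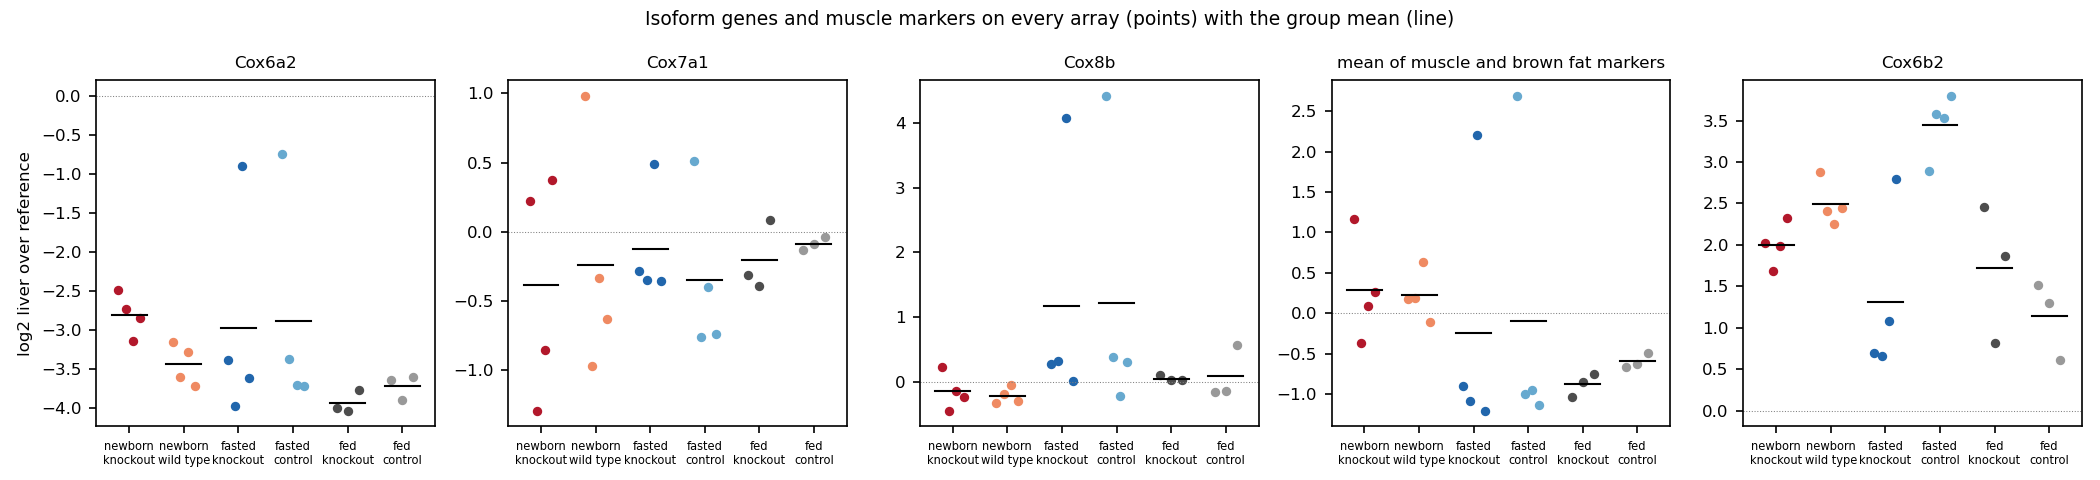
Isoform genes and muscle markers are plotted for every array (points) with the group mean (line), with groups along the horizontal axis and log2 liver over reference on the vertical axis. For Cox6b2 the fasted knockouts lie at 0.66 to 2.79 and the fasted controls at 2.89 to 3.80, and for Cox6a2 and Cox8b fasted knockout 3 and fasted control 1 stand apart from all other arrays.

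Sdhb had the next smallest p in fasted adults, at 0.27 ± 0.09 (SE, limma adjusted p = 0.25), followed by Atp5g2 at 0.46 ± 0.17 (SE, adjusted p = 0.31), which was -1.12 with the liver channel alone. In fed adults the smallest were those of Atp5k (0.23 ± 0.09, SE, adjusted p = 0.59), Ndufc2 (-0.31 ± 0.13, adjusted p = 0.65) and Ndufb5 (0.21 ± 0.11, adjusted p = 0.81). In newborns it was that of Cox6a2, the muscle form of a complex IV subunit, which was -2.50, -2.73, -3.15 and -2.84 in knockouts, against -3.16, -3.60, -3.29 and -3.72 in wild types. All 4 knockouts lay above all 4 wild types, by 0.64 ± 0.17 (SE, limma adjusted p = 0.11), and each genotype had its own slide.

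Muscle isoforms separated 2 adult arrays from the rest. Cox6a2 was -0.91 in fasted knockout 3 and -0.74 in fasted control 1, while the other 6 fasted arrays read -3.98 to -3.38. Cox8b, the muscle form of another complex IV subunit, was 4.08 and 4.42 on the same arrays, and at most 0.39 on the other fasted arrays. Cox7a1 was 0.49 and 0.51 there, and -0.76 to -0.29 on the others. The mean log2 ratio over 9 muscle and brown fat markers was 2.21 in fasted knockout 3 and 2.69 in fasted control 1, against -1.21 to -0.90 on the other fasted arrays. Cox6a2 was well above background on no fed array, and it did not pass between fasted and fed livers (limma adjusted p = 0.33 in knockouts and 0.41 in controls). Without both arrays, a setting chosen after seeing the data, fasted knockouts had 8 genes higher and 11 lower than fed ones, fasted controls had 11 higher and 10 lower, and newborns had 11 higher and 33 lower than adults. The shares of all genes called in this setting are not given here, so these counts are not by themselves a result about the subunits. The part of muscle transcripts in the other values of these arrays was not tested.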

How the data were processed

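Liver RNA (Cy3) and a common mouse reference RNA (Cy5) were hybridised together on 2-colour Agilent arrays, 1 array per mouse, per the labels. Per the file headers, the authors quantified the scans with Agilent Feature Extraction 10.5.1.1, with probe positions on mm9; the submitters' processing notes name version 8.5.1.1. Per the file headers, the deposited array files hold spot intensity values (median signal and local background per channel), processed intensity values that were background-subtracted and dye-normalized, and the log10 ratio of reference over liver. The deposited table of all samples holds the same log10 ratios, with no step between arrays.

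Median intensities were corrected with normexp (offset 50), with local backgrounds marked as outliers replaced by the array's median background, normalized by loess and turned to log2 liver over reference; control spots had no weight and outlier spots were set missing. Genes were tested through their brightest probe where it was well above background in liver on at least 3 arrays (4 in newborns alone), with limma 3.58.1 (lmFit, eBayes, two-sided) in R 4.3.3 and Benjamini-Hochberg adjustment over all genes tested, threshold 0.05. The age fit held 22 arrays and 6 group means of equal weight, the adult fit 14 and the newborn fit 8. Scripts were tested on simulated data. The number of arrays limits the precision. Figures used matplotlib 3.10.9 under Python 3.11.15.

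By rule the text names up to 4 genes with the largest change in each direction per complex between the ages, up to 6 by adjusted p in each other comparison (the 3 smallest p where none passed), all isoform genes and up to 3 genes from each other list. Further genes are named with their values to account for each role, and these were chosen after their values were seen. The subunits and lists were chosen with earlier results of these data known. Probes for Atp5md, Atp5mpl, Ndufb1 and Uqcr10 carry other names in the files and were not used, and the 13 mitochondrially encoded subunits matched no probe name and are not analysed here. Values of a withheld item are not reported here. Alternatives were the processed signals, median centring, outlying backgrounds kept, no filter, every probe, the liver channel alone, replicate and slide blocks, and each array left out; leaving out both arrays with muscle transcripts, or both with pancreas transcripts, was added after seeing the data.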

Additional observations from a re-analysis of the deposited data

Results flagged for a closer look

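In groups of 4, the highest or lowest array was compared with its nearest neighbour by Dixon's criterion for 93 genes named by the rule, in 368 groups, and 24 stood apart, where chance gives about 1 group in 20. Newborn wild type 1 had 5 of them, fasted knockouts 1 and 3, fasted controls 1 and 3 and newborn knockout 1 had 3 each, newborn wild type 4 had 2 and newborn wild type 2 and fasted knockout 4 had 1 each.

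Newborn wild type 1 was the highest of its group for Ndufc2 (0.71), Ndufa8 (1.13), Ndufb5 (1.39), Cox7b (1.65) and Mrps10 (-0.73), all of small subunits or ribosomal proteins. Newborn knockout 1 was the highest of its group for Atp5j (0.92) and the lowest for Vsig4 (3.03) and Hnf4a (5.25). Newborn wild type 2 was the highest for Hnf4a (5.96), and newborn wild type 4 was the lowest for Pdhx (-0.36) and the highest for Polg (1.80).

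Fasted knockout 3 was the highest of its group for the muscle isoform genes Cox7a1 (0.49) and Cox8b (4.08) and for the myosin light chain gene Mylpf (1.57). Fasted control 1 was the highest for Cox6a2 (-0.74), Cox8b (4.42) and Mylpf (1.67). Fasted knockout 1 was the highest for Uqcrh (0.28) and the lowest for Ndufs8 (0.53) and Mrpl38 (0.41), and fasted knockout 4 was the lowest for Actc1 (-2.63). Fasted control 3 was the highest for Atp5d (1.20) and Atp5g1 (1.11) and the lowest for Ndufab1 (0.42).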

How the results depend on the processing

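The newborn minus adult counts of 33 lower and 10 higher became 17 and 28 with median centring, and the count higher became 5 with the liver channel alone. With each array left out in turn 30 to 34 were lower and 9 to 14 higher. Signs turned for Sdhc (0.17), Uqcrb (0.077), Uqcrfs1 (0.023), Atp5g1 (0.067), Cox6a1 (-0.040), Cox6b1 (0.50), Cox7a1 (0.51) and Cox4i2 (-0.23) with median centring, and for Ndufc2 (-0.017), Sdhc (0.044), Atp5a1 (-0.096), Atp5g3 (0.022), Cox7a2 (-0.27), Cox7b (-0.55) and Cox8a (-0.10) with the liver channel alone. Cox6a1 was -0.011 with outlying backgrounds kept. Cox7a1 was 0.00089 without both arrays with muscle transcripts, 0.0005 without newborn wild type 2 and 0.030 without newborn knockout 2, and -0.33 to 0.030 over all arrays left out. The median of the subunits relative to all genes was -0.17, and -0.34 to -0.11 over the alternatives. Fasted minus fed in knockouts, 14 genes higher and 10 lower, became 29 and 3 with the processed signals, 65 and 0 with median centring and 5 and 3 with outlying backgrounds kept. It had 7 higher with the liver channel alone, 8 higher with the replicate block, 8 higher without both arrays with muscle transcripts, and 4 higher and 5 lower without both arrays with pancreas transcripts. With each array left out it had 7 to 15 higher and 7 to 13 lower, with 8 higher without fasted knockout 1 or 3, 9 without fasted knockout 4 or fed knockout 1 and 7 without fed knockout 2. In controls 10 higher and 11 lower became 18 and 4 with the processed signals, 63 and 0 with median centring and 2 and 4 with backgrounds kept, with 17 higher when every probe was tested and 20 lower with the liver channel alone. With each array left out it had 7 to 12 higher and 5 to 11 lower, the 5 without fed control 2. The relative median turned to 0.64 in knockouts and 0.53 in controls with median centring, and to 0.012 in controls with backgrounds kept. With median centring signs turned in knockouts for Ndufa10 (0.061), Sdha (0.44), Sdhb (0.38), Sdhd (0.49), Ndufv1 (0.54), Ndufs8 (0.35), Ndufb8 (0.68), Ndufa7 (0.61), Atp5h (0.64), Cox4i1 (0.59), Cox5a (0.69), Cox5b (0.42), Cox8a (0.71) and Cyc1 (0.29), and in controls for Ndufa10 (0.096), Ndufa13 (0.30), Ndufb8 (0.35), Sdha (0.34), Sdhd (0.44), Ndufv1 (0.54), Atp5h (0.62), Cox4i1 (0.44), Cox5a (0.44), Cox5b (0.24), Cox8a (0.27) and Cyc1 (0.12). With the liver channel alone they turned in knockouts for Sdha (0.99), Ndufb5 (-0.58), Ndufb3 (-0.50), Ndufv3 (-0.20), Ndufa7 (0.037), Cox6b1 (-0.48), Cox7a2 (-0.50), Cox6c (-0.076) and Cyc1 (0.074), and in controls for Sdha (1.03), Ndufb3 (-1.05), Ndufb5 (-0.33), Ndufa8 (-0.40), Cox6b1 (-0.25), Cox7a2 (-0.36), Cox6c (-0.20) and Cyc1 (0.087). With the liver channel alone the knockout difference turned for Cox6b2 in newborns (0.37), Atp5g2 in fasted adults (-1.12) and Atp5k in fed adults (-0.0076). The fasted knockout count of 0 became 1 lower gene, Cox6b2, with median centring, with slide as a fixed block and without fasted knockout 4, and was 0 to 1 over all arrays left out. The cause of these changes was not tested. Of 4245 values of named genes under alternatives, 3955 kept their direction and side of the threshold, 208 lost the call, 17 gained one and 65 turned sign.

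Same-numbered newborns correlated at 0.49, 0.34, 0.39 and -0.23 in their deviations, and same-numbered adults of different groups at -0.13 to 0.15. Whether the numbers stand for something shared among newborns was not tested, and the main fits did not pair samples by number. With the replicate block 34 genes were lower and 11 higher in newborns, 10 lower and 8 higher in fasted knockouts and 9 and 9 in fasted controls. A slide block was not possible in newborns. Probes near background limit what fed arrays show.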
